A study of Apostichopus japonicus with 9 samples.

Results

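The miR-7 family was followed in intestine of Apostichopus japonicus, an edible sea cucumber and thus an echinoderm, over control animals, 6 h and 48 h of heat stress at 26 °C. Its members were the names miR-7-5p, miR-7b and miR-7a, taken by the number 7 in the miRNA name, 3 of the 409 different names in the deposited tables. Another table entry, the plain name miR-7, carries the same number and is described beside them. Small RNA of 18 to 30 nt was sequenced from animals of 100 to 120 g, with 3 control libraries labelled normal, 3 libraries at 6 h and 3 at 48 h. Each library came from 1 individual. The labels give neither the temperature nor the sampling time of the control animals. Both heat groups were set against these same controls, so effects of warmth and of the time spent in the experiment cannot be told apart.

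miRNAs are short RNAs that pair through a seed near their 5′ end with messenger RNAs and lower their output. miR-7 is an old animal miRNA found in vertebrates, insects and echinoderms. In vertebrates it is known from neurons and from hormone-secreting cells, among them the insulin-secreting cells of the pancreas, where it dampens secretion, and in brain it is bound by the circular RNA Cdr1as. In Drosophila it acts in photoreceptor and sensory organ development and helps to keep those programs steady when temperature fluctuates. A name ending in 5p marks the arm of the hairpin that the mature strand comes from, and the letters a and b mark closely related mature forms. Names in these tables say which known sequence the authors matched, not that the sea cucumber has a gene for each.

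Intestines held at 26 °C for 48 h had higher levels of all 3 members than control intestines. miR-7-5p stood at a mean of 763 RPM (reads of the miRNA for every M reads in the library, M for mega) against 218 RPM in the control, 3.49-fold higher. miR-7b had 739 RPM against 210 RPM, 3.52-fold higher. The control had no reads of miR-7a, which had a mean of 272 RPM at 48 h. At 6 h none of these names was listed, so no level can be given for that time. Levels are the authors' means over 3 libraries and carry no SD, and a fold is the ratio of such means unless another scale is named.

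**Figure D1:**
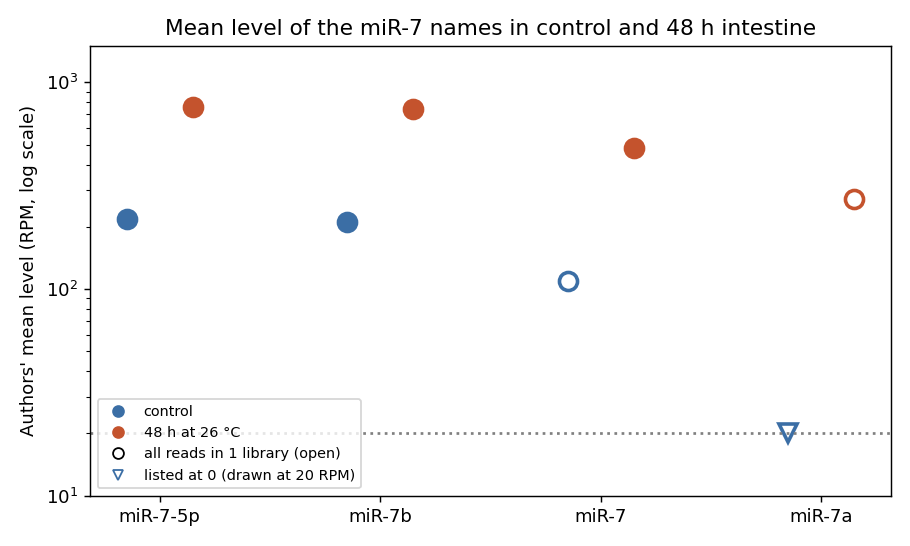
Authors' mean level in RPM (log axis) of the 4 miR-7 names in control (blue) and 48 h (red) intestine; open circles mark means whose reads all came from 1 library, and the triangle marks a group listed at 0, drawn at 20 RPM (dotted line). miR-7-5p, miR-7b and miR-7 stood higher at 48 h, and miR-7a was listed at 0 in the control.

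The pooled counts behind these means were large. miR-7-5p had 70833 reads in the control and 182225 reads at 48 h, and on the authors' scale of pooled counts over pooled totals this is a 3.83-fold difference, with an exact 95% interval of 3.79 to 3.86. For miR-7b the counts were 68061 and 176188 reads, a 3.85-fold difference with an interval of 3.81 to 3.88. These intervals take each read as an independent molecule, which reads without molecular identifiers are not. They cover counting error at most, and they leave out the spread between animals. In the authors' deposited table the log2 ratios were 1.94 for miR-7-5p, 1.94 for miR-7b and 17.19 for miR-7a. The last depends on the value the authors put for a count of 0. The q-value was entered as 0 for each of these names, from a test on pooled reads that the sources used here do not name.

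Being listed as higher was common in this comparison. Of 415 names tested at 48 h, 179 were listed as more than 2-fold higher with a q-value under 0.05, which is 43.1%. Among them were 3 of 3 members. Members were taken from listed names, so being listed was fixed in advance and only time and direction were free. Of the 290 names listed at 48 h, 179 were higher. Of the names tested at 6 h, 38.7% were listed as higher, and no member was listed. In a stricter call, the lower group was the control for names listed as higher and the heat group for names listed as lower. Libraries of the lower group that could lie below 20 RPM were put at 20 RPM. Where that group had reads in 2 or more libraries, this was done for 1 library. Libraries of the higher group at 0 stayed at 0. The call asked for means at least 2-fold apart. It was met in the higher direction by 12.9% of the tested names at 6 h, with no member, and by 14.5% at 48 h. The latter were 60 of the 290 names listed at 48 h and held 3 of 3 members. The ratios of the members were 3.39 for miR-7-5p, 3.41 for miR-7b and 13.6 for miR-7a. The 20 RPM minimum was inferred from the tables, where the smallest level of a library that held all reads of a name was 20.01 RPM.

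By level at 48 h miR-7-5p held place 26 among the 290 listed names, miR-7b place 27 and miR-7a place 37. In the control miR-7-5p and miR-7b held places 28 and 29. The order of levels within the family at 48 h was miR-7-5p, miR-7b, miR-7 and miR-7a. The first pair cannot be separated, since their counts lay within 3.91% of each other in the control and 3.31% at 48 h. They were therefore treated as sharing reads, and by this rule the family counts 2 members rather than 3. The rule compares pooled counts, and whether miR-7a shares reads with the other names was not tested.

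**Figure D2:**
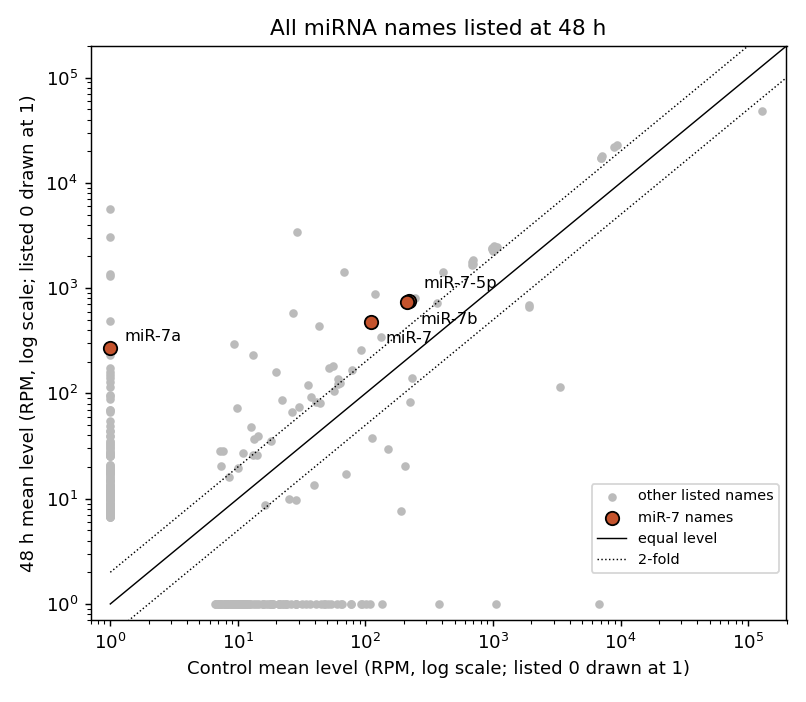
Control mean level (x) against 48 h mean level (y) in RPM, both on log axes, for the 290 names listed at 48 h, with a listed 0 drawn at 1; the solid line marks equal levels and the dotted lines 2-fold. miR-7-5p and miR-7b lie nearly on one spot above the upper dotted line, and miR-7a lies on the left edge with a control listed at 0.

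The tables hold no value for any single library, but the count and the mean together limit what each library can hold. Library totals recovered from these columns were 91.6, 109 and 145 M reads in the control and 57.2, 61.9 and 113 M reads at 48 h. Libraries are called below by their totals, which are not tied to particular animals. The limits take each library to be either at 0 or at 20 RPM or more.

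For miR-7-5p the 48 h library of 113 M reads held between 788 and 914 RPM. No control library could hold more than 620 RPM, that limit being the one for the library of 109 M reads. The limits were 35.2 to 452 RPM in the control library of 91.6 M reads and 0 to 203 RPM in the one of 145 M reads. At 48 h the libraries of 57.2 and 61.9 M reads could each be as low as 0 or reach 1376 and 1501 RPM, but not both low at once, because together they averaged 688 to 751 RPM. The second highest 48 h library held at least 718 RPM. At least 2 of the 3 libraries at 48 h thus lay above every control library, while the lowest one could lie anywhere from 0 to 718 RPM.

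miR-7b was bounded in the same way. Its 48 h library of 113 M reads held 757 to 879 RPM, the second highest at least 699 RPM, and no control library more than 593 RPM. Such a separation of at least 2 libraries at 48 h from every control library was found for 31 of the 290 listed names, which is 10.7%. miR-7-5p and miR-7b were among the 31, and, being treated as sharing reads, count as 1 case. miR-7a was not, since it had reads in 1 library.

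**Figure D3:**
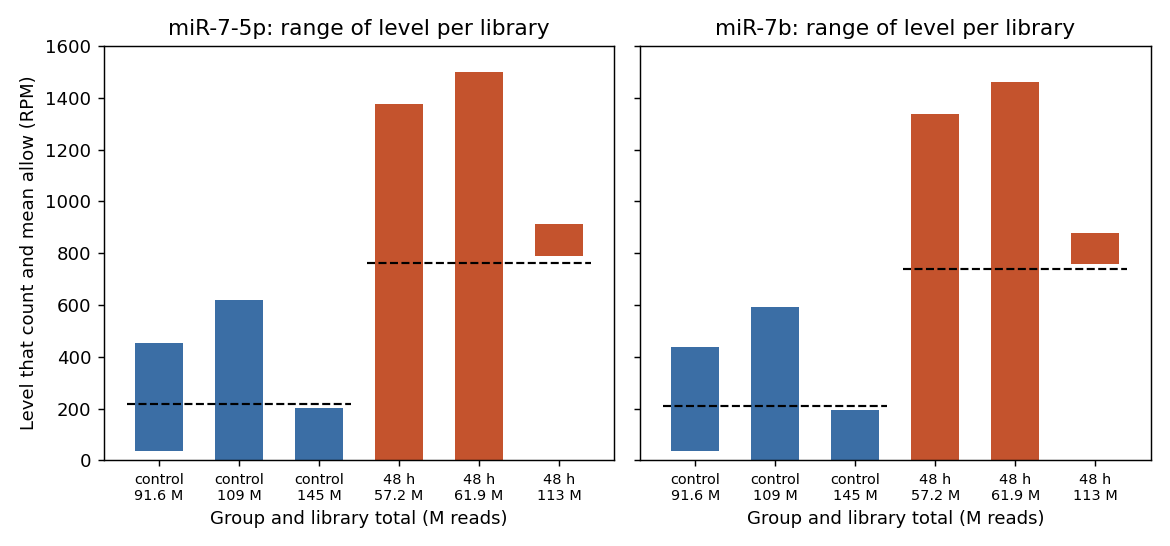
Range of levels in RPM that the pooled count and the mean allow in each library, for miR-7-5p (left) and miR-7b (right), with control libraries in blue, 48 h libraries in red and the library total in M reads under each bar; dashed lines are the authors' group means. The bar of the 48 h library of 113 M reads starts above the top of every control bar in both panels, whereas the bars of the other 48 h libraries reach down to 0.

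The coefficient of variation between libraries of miR-7-5p lay between 38.9% and 159% in the control and between 10.3% and 98.4% at 48 h, as far as count and mean limit it. The lower limits for miR-7b were 39.5% and 9.53%. The single library with the most miR-7-5p held 41.3% to 94.6% of the summed control level and 36.8% to 65.6% of the summed 48 h level. Within these limits the true spread is not known, and no test across animals could be made.

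With any 1 library left out, miR-7-5p remained higher at 48 h whatever the levels within the limits. Without the 48 h library of 113 M reads the ratio of means would be 3.15 to 3.44, close to the ratio with all libraries. Without the one of 57.2 M reads it would be 2.09 to 5.24. Without the one of 61.9 M reads it would be 1.80 to 5.24, the only case in which it could fall below 2-fold. Leaving out the control library of 91.6 M reads gave a ratio of 2.46 to 7.51, and leaving out the one of 145 M reads gave 2.33 to 3.38. Without the control library of 109 M reads the ratio could lie anywhere from 2.33 to 43.3, the widest range of the 6. For miR-7b the lowest ratio was 1.80, again without the 48 h library of 61.9 M reads.

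**Figure D4:**
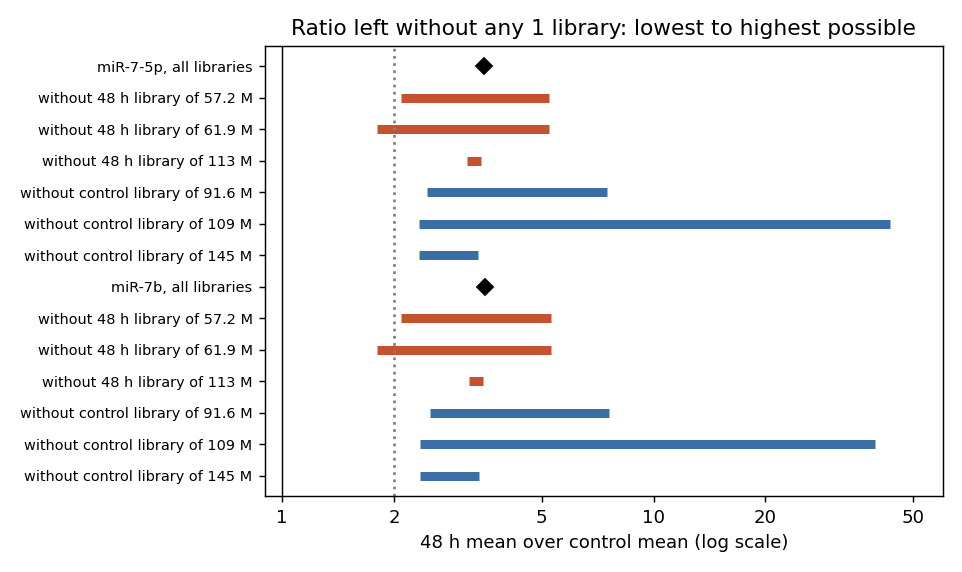
Ratio of the 48 h mean to the control mean (log axis) for miR-7-5p and miR-7b with all libraries (diamonds) and without each library in turn, drawn as bars from the lowest to the highest possible ratio; the dotted line marks 2-fold and the solid line equal means. All bars lie above 1, and the bars without the 48 h library of 61.9 M reads begin at 1.80.

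miR-7a behaved differently from the other members. Its 50407 reads at 48 h and its mean fit the total of the library of 61.9 M reads within rounding, so all of them were assigned to that library, at 815 RPM there and less than 20 RPM in the others. The control had 0 reads, which stands for less than 20 RPM in each control library. Its 48 h mean was thus at least 13.6-fold higher than the control, but without that 1 library no reads of miR-7a are left in either group. Names with reads in 1 library were frequent, 118 of the 194 with reads at 48 h (60.8%), and 35 of them had theirs in the library of 61.9 M reads. The result for miR-7a therefore describes 1 library.

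The plain name miR-7 was 4.39-fold higher at 48 h on the means, at 481 RPM against 110 RPM, with 86468 and 30143 reads. The log2 ratio in the authors' deposited table was 2.09. All control reads were in the library of 91.6 M reads, at 329 RPM there and less than 20 RPM in the other control libraries. At 48 h the library of 57.2 M reads held 611 to 1374 RPM, above the highest control library, while the one of 61.9 M reads held 0 to 833 RPM and the one of 113 M reads at most 69.7 RPM. Without the library of 57.2 M reads the 48 h mean of miR-7 would be anywhere from 34.8 to 416 RPM. The ratio to the control mean would then be 0.317 to 3.80, so the direction without that library is not known.

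Within the 48 h library of 113 M reads the family names were far apart. miR-7-5p held at least 788 RPM and miR-7b at least 757 RPM there, whereas miR-7 held at most 69.7 RPM and miR-7a less than 20 RPM. The labels do not say how reads were divided among related names, and the part of that step in these values was not tested.

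The 5 names most like miR-7-5p by level in the control and at 48 h, over these 2 group means and among 73 names with reads in both, were sought without miR-7b, which was treated as sharing its reads. They were miR-1715-5p, miR-2006-5p, miR-8366a-3p, miR-7 and miR-6093. Of these, miR-1715-5p was nearest at a distance of 0.19 on the log2 scale, with 244 RPM in the control and 814 RPM at 48 h. miR-2006-5p, a name first given in echinoderms, lay at a distance of 0.74, with 362 and 720 RPM. The others lay between 0.91 and 1.26. None of the 5 was listed at 6 h, where 156 of the 290 names listed at 48 h were also listed. The control reads of miR-8366a-3p, of miR-7 and of miR-6093 each came from 1 library, unlike those of miR-7-5p. Likeness over 2 means is a description of levels only.

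Other miRNAs of neurons and secretory cells gave the setting of the miR-7 values in this mixed tissue. In bulk tissue a larger number of cells of a type and more of a miRNA per cell cannot be told apart. Among miR-124, miR-9, miR-153, miR-137, miR-128 and miR-219 names, which are known from neurons, 6 were listed at 48 h, all as higher. Over all names, 179 of the 290 listed were higher, which is 43.1% of all tested names. Of the 6, 2 met the stricter call, both miR-124 names, beside 60 of the 290 listed names (14.5% of all tested names). Counting names treated as sharing reads once leaves 4 of the 6, and 1 by the stricter call, miR-124-3p at 1832 RPM against 700 RPM, 2.62-fold higher. The other 4 had the reads of a group in 1 library. At 6 h 4 names of this list were listed, 2 as higher and 2 as lower, and none met the stricter call. Over all 275 names listed at 6 h, 156 were higher and 119 lower. These are 38.7% and 29.5% of all names tested at 6 h. The median log2 ratio of the 6 was 0.61, beside 0.00 over all names listed at 48 h, when a group at 0 is set to 20 RPM and a level under 20 RPM against it counts as no difference.

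The miR-375 names, found in vertebrates in islets of the pancreas and other secretory cells, went the other way. All 4 were listed as lower at 48 h, and 3 by the stricter call. Counted once where they share reads by the same rule, these are 3 and 2 names. Of the 290 listed names 111 were lower, and 29 by the stricter call, which are 26.7% and 6.99% of all tested names. The median log2 ratio of the 4 miR-375 names was -1.25 on the same scale. miR-375-3p had 669 RPM at 48 h against 1913 RPM in the control, a ratio of 0.350. At 6 h 3 of the 4 listed miR-375 names were lower, beside 119 of the 275 listed names (29.5% of all tested names). The miR-7 names were not listed at 6 h. Among the sensory and ciliated names miR-96-3p, at 11.3 RPM in the control and listed at 0 at 48 h, was the 1 name listed at 48 h, and it did not meet the stricter call. Muscle names of miR-1 and miR-133 had 5 higher and 2 lower at 48 h, 3 and 1 by the stricter call. With shared reads counted once these are 3 and 2 names, and 1 and 1 by the stricter call. Over all 290 listed names there were 179 higher and 111 lower, 60 and 29 by the stricter call. Both epithelial names listed at 48 h were higher, also by the stricter call, and each had a control listed at 0. Their means at 48 h were 1364 RPM (miR-429) and 94.0 RPM (miR-205-5p). The 1 epithelial name listed at 6 h, miR-8, was lower, also by the stricter call. It had 69.8 RPM in the control and was listed at 0 at 6 h. The part of any shift in cell makeup in the miR-7 values was not tested.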

How the data were processed

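Per the labels' protocols, RNA of 18 to 30 nt from each animal's intestine was gel-purified, ligated to adapters and sequenced on a HiSeq instrument. No aligner, genome build, miRNA database or counting rule is named in the labels or headers. The authors deposited 1 table per heat group against the control, with a read count per name pooled over 3 libraries, a mean RPM, a log2 ratio, and a p-value and q-value. The tables list 275 of 403 tested names at 6 h and 290 of 415 at 48 h, all beyond 2-fold; names not listed are not analysed here. The number tested was read from the ratio of q to p.

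Nothing was tested across replicates, because the columns hold group values. Library totals were recovered as the densest values of pooled count over summed RPM. Levels per library were then bounded, each at 0 or at least 20 RPM, and this bounding step was tested on simulated data. The simulation took the recovered totals and the 20 RPM minimum as given, so neither of these was tested by it. A pair of names was taken to share reads where the counts lay within 15% of each other in each group. The members, the lists and the rule for named miRNAs (members, other names of number 7, the 5 nearest names, and lists of neural, secretory, sensory, muscle and epithelial miRNAs) were chosen with earlier results of these data known. Python 3.11.15, numpy 2.4.6, pandas 2.3.3 and scipy 1.17.1 were used.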

Additional observations from a re-analysis of the deposited data

How the results depend on the processing

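All 3 members stayed at least 2-fold higher at 48 h under the ratio of means, totals without the 5 most abundant names (a shift of -0.05 in every log2 ratio), the stricter call and a 20 RPM value for a group at 0. Names that share reads counted once left 2 members, at 15% and at 5%. With 1 library left out, the number of members bound to stay at least 2-fold higher ranged from 0 to 3. It was 0 only without the 48 h library of 61.9 M reads, where miR-7-5p and miR-7b could fall to log2 ratios of 0.85 and 0.85 and no reads of miR-7a remain. The share of tested names called higher fell from 43.1% to 14.5% under the stricter call. No value at 6 h, and none of 48 h against 6 h, could be recomputed, since no miR-7 name is listed at 6 h. No paired analysis was possible because the columns are pooled over libraries and carry no replicate number; filters and other normalizations per library could not be run for the same reason. Counting error is small if reads are taken as independent, and the spread between animals is not known.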

Other observations

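The gap between miR-7-5p and the plain name miR-7 at 48 h was 95757 reads and 846 RPM in summed level. Their ratio, 113.2 M reads, lay within 0.1% of the total of the largest 48 h library. This difference was larger than rounding, unlike in the fit of miR-7a to its library. In the control the same gap was 40690 reads and 326 RPM, and its ratio of 124.8 M reads matched no library total, lying between 109 and 145 M reads. If miR-7 had no reads in that library, its count and mean would fix its levels at 611 RPM in the library of 57.2 M reads and 833 RPM in the one of 61.9 M reads, where miR-7a held 815 RPM.

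Levels were also computed under an assumption chosen after seeing the data, that miR-7-5p was not below miR-7 or miR-7a in any library. Whether it holds is not known. The 48 h libraries would then hold 611 to 612, 833 to 835 and 844 RPM of miR-7-5p in the order of their totals. The control libraries would hold 329 to 452, 0 to 182.5 and 143 to 203 RPM. Under this assumption the lowest 48 h library would be at least 1.35 times the highest control library, a log2 ratio of at least 0.43. The groups would not overlap under this assumption. Without it the lowest 48 h library lies anywhere from 0 to 718 RPM.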
